A study of Mus musculus with 3 samples.

Results

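Oligodendrocyte precursor genes were followed in cultured mouse cortical neurons grown on 2 peptide scaffolds and on a control substrate. The group was given by name and holds 9 genes of the 54232 in the count files: Olig1, Olig2, Sox8, Sox10, Nkx2-2, Pdgfra, Cspg4, Gpr17 and Lhfpl3. All 9 were found by symbol, and 8 of them reached 1 CPM (the gene's share of all counts, scaled to a fixed total) in at least 1 library, along with 13884 genes in all. Nkx2-2 did not, and Gpr17 did so only in the control library.

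The cells of all 3 libraries are labelled as wildtype CD1 cortical neurons, CD1 being an outbred mouse stock. Cells of the IKVAV PA + PEDOT-S library were on a peptide amphiphile (PA), a peptide that assembles into fibres, carrying the laminin-derived sequence IKVAV, together with a further component. Its library name calls that component PEDOT-S_OH and its title PS2, and both are taken here to mean the conducting polymer PEDOT-S. The IKVAV PA library had the peptide amphiphile alone, and the PDL library is titled as the control. The treatment field names peptide amphiphile for all 3 libraries, the control included, so groups follow titles and library names. The labels used here do not state the age of the animals, the days in culture or any step that limits glial growth.

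Each condition has a single library, labelled repeat 3, so no statistical test between conditions was possible and every difference below describes libraries. Totals were 79057998 counts with PEDOT-S, 124425958 on IKVAV PA and 78993105 on PDL. Levels are normalised CPM, and a ratio carries a 95% counting interval, which covers counting error only and not the spread between cultures. A gene was called higher or lower where the bound of that interval nearest to no difference lay beyond 1.5-fold. The neuronal part of the culture label fits its markers, in that all 15 pan-neuronal genes listed passed the filter. They summed to 13079, 13210 and 12910.0 CPM with PEDOT-S, on IKVAV PA and on PDL. These markers do not bear on cortical origin or on the share of other cells.

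Oligodendrocyte precursor cells divide, migrate and give rise to the myelin-forming oligodendrocytes of the brain. They respond to platelet-derived growth factor through the receptor Pdgfra, and carry the proteoglycan NG2, the product of Cspg4. The factors Olig1, Olig2, Sox8, Sox10 and Nkx2-2 specify the lineage and act on its differentiation, and Gpr17 marks cells that have begun to differentiate. None of these genes is limited to precursors. Olig2 is also found in progenitors of the ventral forebrain, Sox8 in astrocytes, Sox10 in neural crest cells, Pdgfra in fibroblasts and Cspg4 in pericytes.

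Promoter windows from RefSeq (GRCm38.p6, 250 bases before to 50 after each gene's RefSeq start) were matched for 6 of the 9 genes. These starts can differ from those of the gene spans given below, which are from GENCODE. They are shown for 3 genes called lower on both scaffolds and for Lhfpl3, which was not, all on the + strand and read 5′ to 3′. Capitals mark the E-box CAGCTG, a motif of basic helix-loop-helix factors.
Olig2, chr16:91225300-91225599: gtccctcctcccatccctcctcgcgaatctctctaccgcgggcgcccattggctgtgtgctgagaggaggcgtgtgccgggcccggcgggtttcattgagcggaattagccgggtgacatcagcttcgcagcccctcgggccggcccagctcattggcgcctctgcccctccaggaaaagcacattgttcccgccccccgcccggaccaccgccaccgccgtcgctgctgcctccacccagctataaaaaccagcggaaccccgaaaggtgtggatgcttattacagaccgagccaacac
Pdgfra, chr5:75152001-75152300: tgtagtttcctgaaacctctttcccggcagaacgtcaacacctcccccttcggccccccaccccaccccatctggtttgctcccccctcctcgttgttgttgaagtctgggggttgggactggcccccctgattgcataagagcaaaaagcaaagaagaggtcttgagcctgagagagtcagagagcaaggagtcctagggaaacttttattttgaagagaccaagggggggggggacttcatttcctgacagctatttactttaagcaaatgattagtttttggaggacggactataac
Cspg4, chr9:56864854-56865153: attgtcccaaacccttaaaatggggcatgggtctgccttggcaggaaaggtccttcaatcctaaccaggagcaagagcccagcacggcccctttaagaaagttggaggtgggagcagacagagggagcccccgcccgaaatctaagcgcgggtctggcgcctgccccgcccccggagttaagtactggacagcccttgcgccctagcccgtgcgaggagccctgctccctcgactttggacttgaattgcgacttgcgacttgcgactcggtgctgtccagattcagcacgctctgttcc
Lhfpl3, chr5:22745804-22746103: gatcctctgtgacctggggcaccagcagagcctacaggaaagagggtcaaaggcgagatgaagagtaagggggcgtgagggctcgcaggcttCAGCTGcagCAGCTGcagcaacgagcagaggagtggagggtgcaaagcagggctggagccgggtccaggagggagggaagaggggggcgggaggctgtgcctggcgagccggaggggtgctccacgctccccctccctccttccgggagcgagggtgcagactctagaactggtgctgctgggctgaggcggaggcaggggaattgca
Lhfpl3 holds CAGCTG at 158 and 149 bases before its start. No other matched promoter of the group, Sox8 and Nkx2-2 included, holds it. A further E-box searched for, CATATG, and the Sox motif searched for on both strands, ACAAAG, were in none of the 6. Over the 32851 promoters of this length, CAGCTG was in 16.3%, the further E-box in 3.91% and the Sox motif, read on both strands, in 18.7%. Both E-boxes read the same on either strand. These are matches of letters only.

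Olig1 and Olig2, a pair of neighbouring basic helix-loop-helix factors of the lineage, were lower on both scaffolds than on PDL by nearly the same factor. Olig1 (GRCm38 chromosome 16, 91269772 to 91271933) stood at 6.76 CPM with PEDOT-S, 7.04 CPM on IKVAV PA and 26.6 CPM on PDL, from 529, 877 and 2115 counts. Olig2 lies 41.1 kb upstream on the same strand (91225457 to 91228677) and stood at 4.34, 4.32 and 15.6 CPM in the same order, from 340, 539 and 1240 counts. The PDL library was thus the high one for both genes, and the scaffold libraries lay together.

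Against PDL, Olig1 was 3.93-fold lower with PEDOT-S (log2 ratio -1.97, interval -2.11 to -1.84) and 3.77-fold lower on IKVAV PA (-1.91, -2.03 to -1.80). Olig2 was 3.58-fold lower with PEDOT-S (-1.84, -2.02 to -1.67) and 3.60-fold lower on IKVAV PA (-1.84, -2.0 to -1.70). Both ratios of a gene share the PDL library. Between the scaffolds the log2 ratio, PEDOT-S over IKVAV PA, was -0.06 for Olig1 (-0.22 to 0.10) and 0.01 for Olig2 (-0.19 to 0.20). The ratio of Olig1 to Olig2 counts within a library, which no scaling can change, was 1.56 with PEDOT-S, 1.63 on IKVAV PA and 1.71 on PDL, with counting intervals of every difference spanning 0. In bulk RNA, fewer cells of a type and less of an RNA per cell cannot be told apart.

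**Figure D1:**
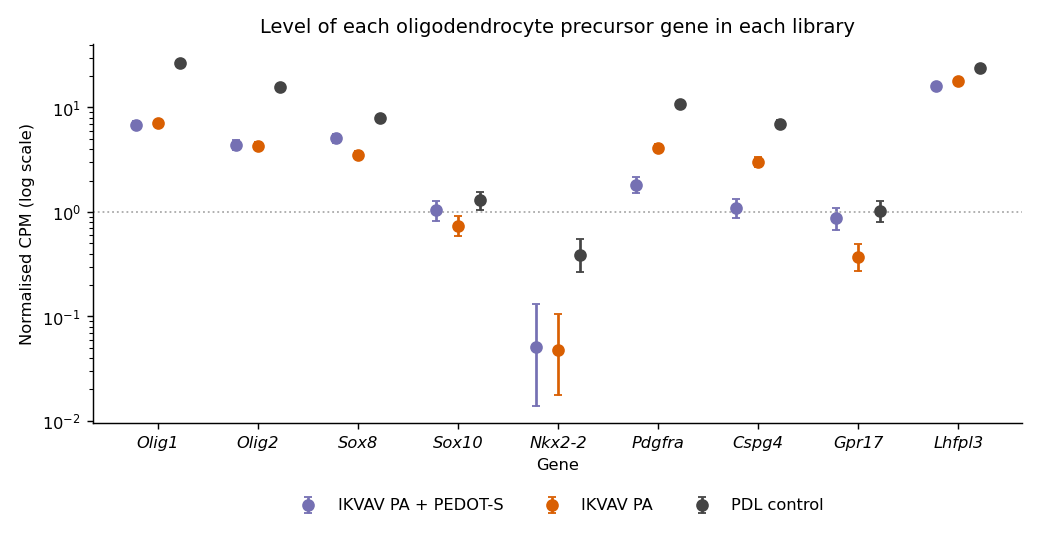
Normalised CPM (log axis) of each gene with PEDOT-S, on IKVAV PA and on PDL, 1 point per library, with bars for the exact Poisson 95% counting interval and a dotted line at 1 CPM. Olig1 and Olig2 are near equal in both scaffold libraries, while Pdgfra and Cspg4 are lowest with PEDOT-S and Gpr17 is lowest on IKVAV PA.

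Of the 8 genes of the group compared, 4 were lower and 0 higher with PEDOT-S than on PDL. Over all genes compared, 3.76% were lower and 0.447% higher. On IKVAV PA 6 of the 8 were lower and 0 higher, where 3.42% of all genes compared were lower and 0.540% higher. Of those 6, Gpr17 was compared only because it passed the filter on PDL, its high library. All 8 compared genes had a negative log2 ratio on either scaffold, with medians of -1.23 and -1.29 for PEDOT-S and IKVAV PA, against 0.00 over all genes in each case. The summed level of the 9 genes was 37.0 CPM with PEDOT-S, 40.9 CPM on IKVAV PA and 94.2 CPM on PDL. Lhfpl3 made up 43.1%, 43.6% and 25.3% of that sum in the same order, and Olig1 18.3%, 17.2% and 28.2%.

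**Figure D2:**
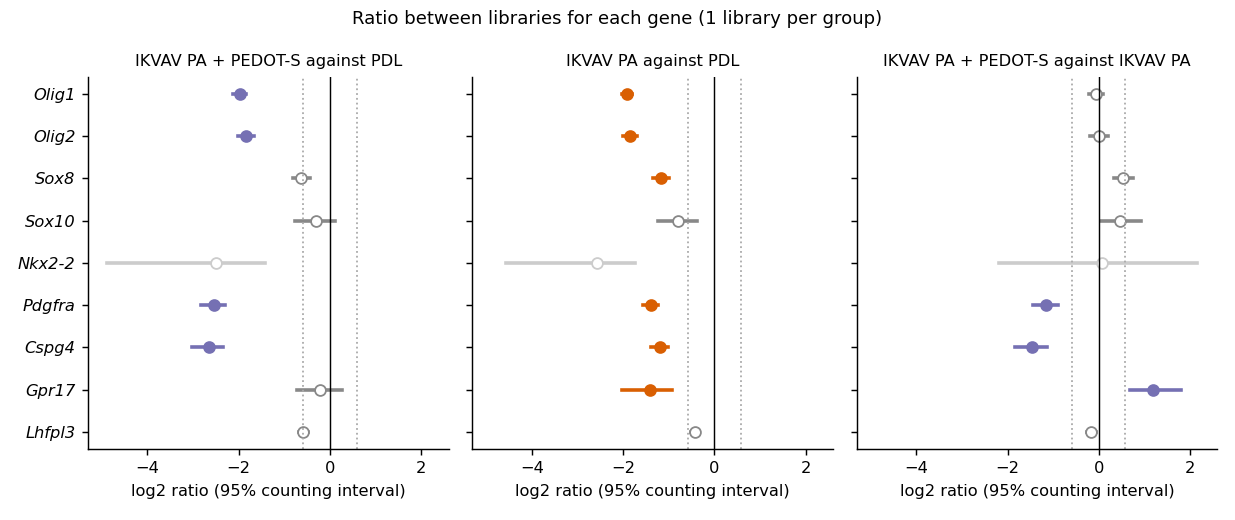
Log2 ratio of each gene with its 95% counting interval for PEDOT-S against PDL, IKVAV PA against PDL and PEDOT-S against IKVAV PA. Filled points passed the 1.5-fold bound (dotted lines), open points did not, and pale Nkx2-2 was below the filter. In the right panel Pdgfra and Cspg4 lie to the left, Gpr17 to the right and the Olig genes at 0.

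Pdgfra and Cspg4, the surface markers by which precursors are usually recognised, were lower on both scaffolds, and lower with PEDOT-S than without it. Pdgfra, the receptor for platelet-derived growth factor (chromosome 5, 75152292 to 75198215), stood at 1.81 CPM with PEDOT-S, 4.06 CPM on IKVAV PA and 10.7 CPM on PDL, from 142, 506 and 853 counts. Cspg4 (chromosome 9, 56865033 to 56899870) stood at 1.09, 3.01 and 6.92 CPM in that order, from 85, 375 and 551 counts. For these genes the 3 libraries were spread out, with PEDOT-S the lowest.

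Pdgfra was 5.90-fold lower with PEDOT-S than on PDL (log2 ratio -2.55, interval -2.83 to -2.30) and 2.64-fold lower on IKVAV PA (-1.39, -1.56 to -1.24). Cspg4 was 6.37-fold lower with PEDOT-S (-2.65, -3.02 to -2.34) and 2.30-fold lower on IKVAV PA (-1.20, -1.39 to -1.01). In the scaffold comparison they were the 2 genes called lower, where 2.02% of all genes were: Pdgfra by 2.24-fold (-1.15, -1.44 to -0.89) and Cspg4 by 2.77-fold (-1.45, -1.83 to -1.13). The Cspg4 to Pdgfra ratio within a library was 0.599 with PEDOT-S, 0.741 on IKVAV PA and 0.646 on PDL, and no difference between these lay beyond counting error. The Pdgfra to Olig2 ratio was 0.418, 0.939 and 0.688. PEDOT-S thus differed from IKVAV PA by -1.17 in log2 (-1.51 to -0.83) and from PDL by -0.72 (-1.04 to -0.40). IKVAV PA differed from PDL the other way, by 0.45 (0.23 to 0.67).

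Some markers of other cells that use Pdgfra or Cspg4 were lower too, more of them with PEDOT-S than on IKVAV PA. The 8 fibroblast markers summed to 86.0 CPM with PEDOT-S, 135 CPM on IKVAV PA and 177 CPM on PDL. Of the 5 compared, 5 were lower with PEDOT-S than on PDL and 2 on IKVAV PA, while Fn1, the largest part of the sum, was within the bound on IKVAV PA (-0.17). Col1a1, a collagen chain, was also lower with PEDOT-S than on IKVAV PA (5.61 against 14.5 CPM, log2 ratio -1.37). The 9 pericyte markers, which include Pdgfrb, summed to 8.59, 12.5 and 20.3 CPM. Of the 3 compared, 3 were lower with PEDOT-S than on PDL and 2 on IKVAV PA, and Rgs5 was lower with PEDOT-S than on IKVAV PA (3.26 against 6.28 CPM, -0.94). The other 6 pericyte markers lay under 1 CPM in every library. Among them Kcnj8, a potassium channel subunit, had 0 counts on both scaffolds and 1 on PDL, and Vtn was at 0.498, 0.786 and 0.502 CPM, the highest on IKVAV PA. The part of these cells in the Pdgfra and Cspg4 values was not tested.

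Sox8 and Sox10, related SoxE factors that act together in the lineage, lay nearer to their PDL level on the scaffolds than the Olig genes. Their log2 ratios of PEDOT-S to IKVAV PA were above 0 but did not pass the bound. Sox8 (chromosome 17, 25565892 to 25570686) stood at 5.10 CPM with PEDOT-S, 3.50 CPM on IKVAV PA and 7.87 CPM on PDL, from 399, 436 and 627 counts. It was 2.25-fold lower on IKVAV PA than on PDL (log2 ratio -1.17, interval -1.35 to -0.99). With PEDOT-S its ratio to PDL was -0.62 (-0.81 to -0.44) and to IKVAV PA 0.54 (0.34 to 0.74), neither past the bound. Of its exonic bases 10.6% are shared with the antisense gene 2810468N07Rik, which held 60, 62 and 100 counts, and the strand setting of the counting is not given, so the Sox8 values are uncertain.

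Sox10 (chromosome 15, 79154908 to 79165240) was weakly expressed, at 1.03 CPM with PEDOT-S, 0.738 CPM on IKVAV PA and 1.29 CPM on PDL, from 81, 92 and 103 counts. Its log2 ratio was -0.32 with PEDOT-S (-0.76 to 0.11) and -0.79 on IKVAV PA (-1.23 to -0.39), and 0.48 between the scaffolds (0.04 to 0.93). It passed no bound in any comparison. Per Olig2 count, however, Sox10 was higher on the scaffolds, at 0.238 with PEDOT-S and 0.171 on IKVAV PA against 0.0831 on PDL. Those differences were 1.52 (1.04 to 1.99) and 1.04 (0.59 to 1.49) in log2. The Sox8 to Sox10 ratio was 4.93, 4.74 and 6.09, with every interval spanning 0.

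Nkx2-2, a homeodomain factor of precursors and early oligodendrocytes (chromosome 2, 147177546 to 147194243), had 4 counts with PEDOT-S, 6 on IKVAV PA and 31 on PDL. These are 0.0511, 0.0481 and 0.389 CPM, all below the filter, so it was not counted above. Its interval lay below no difference on both scaffolds (-4.89 to -1.43 with PEDOT-S and -4.57 to -1.73 on IKVAV PA), with the PDL library highest, as for the Olig genes. Relative to Olig2 the intervals spanned 0 in every pair. Its antisense partner Nkx2-2os had 0 counts in every library.

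Gpr17, a receptor of cells passing from precursor to oligodendrocyte (chromosome 18), was the gene of the group called higher with PEDOT-S than on IKVAV PA, where 0.331% of all genes were. It stood at 0.869 CPM with PEDOT-S, 0.369 CPM on IKVAV PA and 1.02 CPM on PDL, from 68, 46 and 81 counts. The IKVAV PA library was the low one. PEDOT-S exceeded it 2.35-fold (log2 ratio 1.19, interval 0.67 to 1.81), and IKVAV PA was 2.76-fold lower than PDL (-1.41, -2.02 to -0.92). With PEDOT-S the ratio to PDL was -0.22 (-0.71 to 0.26). With fewer than 100 counts per library, these calls rest on few reads, and both were lost with a 2-fold bound. The Gpr17 to Pdgfra ratio was 0.479 with PEDOT-S, 0.0909 on IKVAV PA and 0.0950 on PDL, so that PEDOT-S stood apart from IKVAV PA by 2.40 in log2 (1.76 to 3.03).

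Lhfpl3, a tetraspan membrane protein gene (chromosome 5, 22746059 to 23275597), differed least from PDL on IKVAV PA and passed the bound in no comparison. It stood at 15.9 CPM with PEDOT-S, 17.9 CPM on IKVAV PA and 23.9 CPM on PDL, from 1248, 2226 and 1900 counts. Its log2 ratio to PDL was -0.58 with PEDOT-S (-0.69 to -0.48) and -0.42 on IKVAV PA (-0.51 to -0.33). Of its exonic bases 17.6% are shared with the antisense gene A930003O13Rik, at 73, 104 and 154 counts, so its values are uncertain too. The Lhfpl3 to Pdgfra ratio was 8.79, 4.40 and 2.23, with all 3 differences beyond counting error.

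Per kilobase of merged exons, the order of the group also differed between substrates. Olig1 led on PDL, at 12.3 CPM per kb, ahead of Lhfpl3 at 7.42 and Olig2 at 6.15. Lhfpl3 led with PEDOT-S and on IKVAV PA, at 4.96 and 5.56 CPM per kb, ahead of Olig1 at 3.13 and 3.25 and of Olig2 at 1.72 and 1.71. Sox8 came next after these 3 in every library, at 1.63, 1.12 and 2.52 CPM per kb with PEDOT-S, on IKVAV PA and on PDL. Pdgfra was at 0.181, 0.405 and 1.07 CPM per kb and Cspg4 at 0.0910, 0.252 and 0.580, so both lay below Sox10 (0.339, 0.242 and 0.424) with PEDOT-S and above it elsewhere. Nkx2-2 was last in each library.

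**Figure D3:**
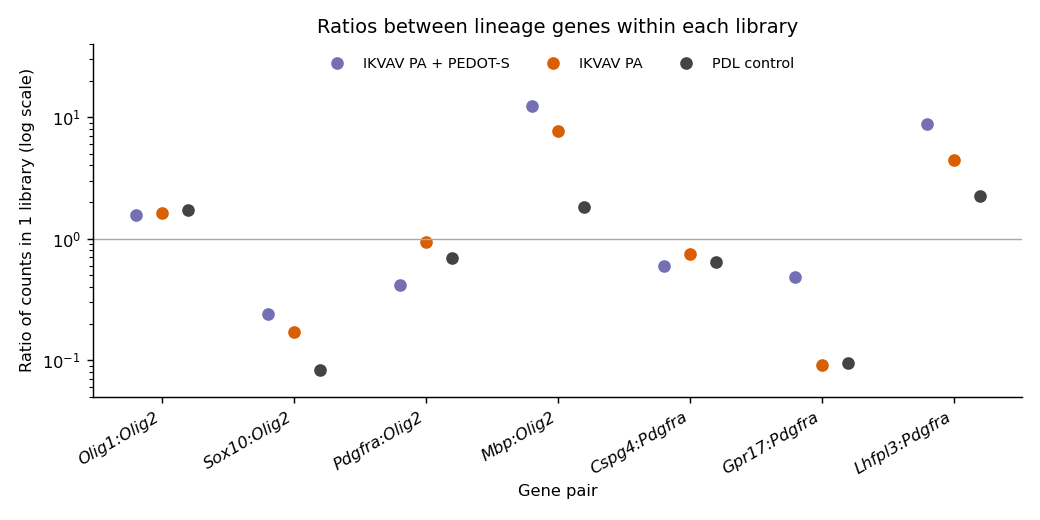
Ratio of the counts of 2 genes within a library (log axis) with PEDOT-S, on IKVAV PA and on PDL, 1 point per library. Olig1:Olig2 lies between 1.56 and 1.71 throughout, whereas Mbp:Olig2 is highest with PEDOT-S and lowest on PDL, and Gpr17:Pdgfra is highest with PEDOT-S.

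Most other genes enriched in precursors stayed within the bound. Of 19 listed, 14 were compared, and 1 was lower on each scaffold than on PDL, with medians of -0.19 for PEDOT-S and -0.25 for IKVAV PA. That gene was Bcan, the proteoglycan brevican, also made by astrocytes (6.86, 5.87 and 17.5 CPM, log2 ratios -1.35 and -1.58). Ptprz1, a receptor phosphatase of precursors and radial glia, was at -0.31 and -0.37, and Vcan, a proteoglycan, at -0.11 and 0.17. Several of these genes, such as Ptprz1, Tnr and Sox6, are also expressed by progenitors or neurons.

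Ligands of Pdgfra were not called where the receptor was, and of the 5 ligands and partner receptor listed 4 were compared, with 1 lower on each scaffold. Pdgfa, the ligand that drives precursor division, stood at 34.9, 33.0 and 31.8 CPM with PEDOT-S, on IKVAV PA and on PDL, with 26.1% of its exonic bases shared with another gene. Pdgfc was at 14.2, 10.4 and 12.1 CPM, and neither gene passed the bound. Pdgfrb, the related receptor of mural cells, was lower on both scaffolds (1.94 and 2.30 against 5.60 CPM, log2 ratios -1.52 and -1.27).

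Among 18 regulators of the lineage 13 were compared, with 2 lower than on PDL with PEDOT-S and 4 on IKVAV PA, and none higher. Gli3, a transcription factor of Hedgehog signalling, was lower on both (1.70 and 2.11 against 5.74 CPM, log2 ratios -1.74 and -1.43), as was Tcf7l2, a Wnt pathway factor of differentiating oligodendrocytes (-1.04 and -1.33). Tcf7l2, at 0.830 and 0.674 against 1.73 CPM, was compared only because it passed the filter on PDL, its high library. Gli2 (-0.57 with PEDOT-S and -1.40 on IKVAV PA) and Sox9 (-0.35 and -0.72), a factor of glial progenitors, passed the bound on IKVAV PA. Id2 and Id4, inhibitors of differentiation, lay at 0.13 and -0.03 with PEDOT-S and at 0.10 and 0.01 on IKVAV PA.

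Some myelin genes were higher on both scaffolds than on PDL, and 1 premyelinating gene was higher with PEDOT-S alone. Of 10 genes of committed and premyelinating cells 8 were compared, with 1 higher and 1 lower with PEDOT-S and 0 higher and 2 lower on IKVAV PA. Myrf, which drives myelin genes, was higher with PEDOT-S (2.17 CPM) than on IKVAV PA (0.738 CPM) and PDL (0.992 CPM), with log2 ratios of 1.53 and 1.11. Bcas1, a marker of newly formed oligodendrocytes, had a pattern near that of Gpr17, at 1.23, 0.497 and 1.24 CPM. Itpr2, an intracellular calcium channel, stood at 0.690, 0.658 and 2.08 CPM (log2 ratios -1.57 and -1.63), and its lower calls rest on a gene that passed the filter only on PDL. Of 14 myelin genes 9 were compared, and 5 were higher than on PDL with PEDOT-S and 3 on IKVAV PA, with none lower (medians 0.91 and 0.32). Mag, counted as higher on each, had 321 counts with PEDOT-S, 274 on IKVAV PA and 80 on PDL. Its log2 ratios to PDL were 2.01 with PEDOT-S and 1.11 on IKVAV PA. It reached 1 CPM in every library, on PDL only just. Mal, also among those counted as higher on each, passed the filter only with PEDOT-S, its high library. Mobp, also counted as higher on each, passed it on both scaffolds but not on PDL (4.13, 1.72 and 0.854 CPM). Among the 9, Mog with PEDOT-S (log2 ratio -0.11) and Ugt8a on IKVAV PA (-0.65) were the lowest and stayed within the bound.

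The balance of Mbp, a myelin gene, over Olig2 within a library differed beyond counting error. The Mbp to Olig2 ratio was 12.3 with PEDOT-S, 7.67 on IKVAV PA and 1.82 on PDL. PEDOT-S differed from PDL by 2.76 in log2 (2.57 to 2.95), IKVAV PA from PDL by 2.08 (1.91 to 2.24), and PEDOT-S from IKVAV PA by 0.68 (0.47 to 0.89). Mbp itself stood at 53.3, 33.2 and 28.3 CPM. On IKVAV PA the wider ratio thus came with a low Olig2 and an Mbp ratio to PDL of 0.23 in log2, within the bound. Which cells the Mbp and Olig2 counts came from was not tested.

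**Figure D4:**
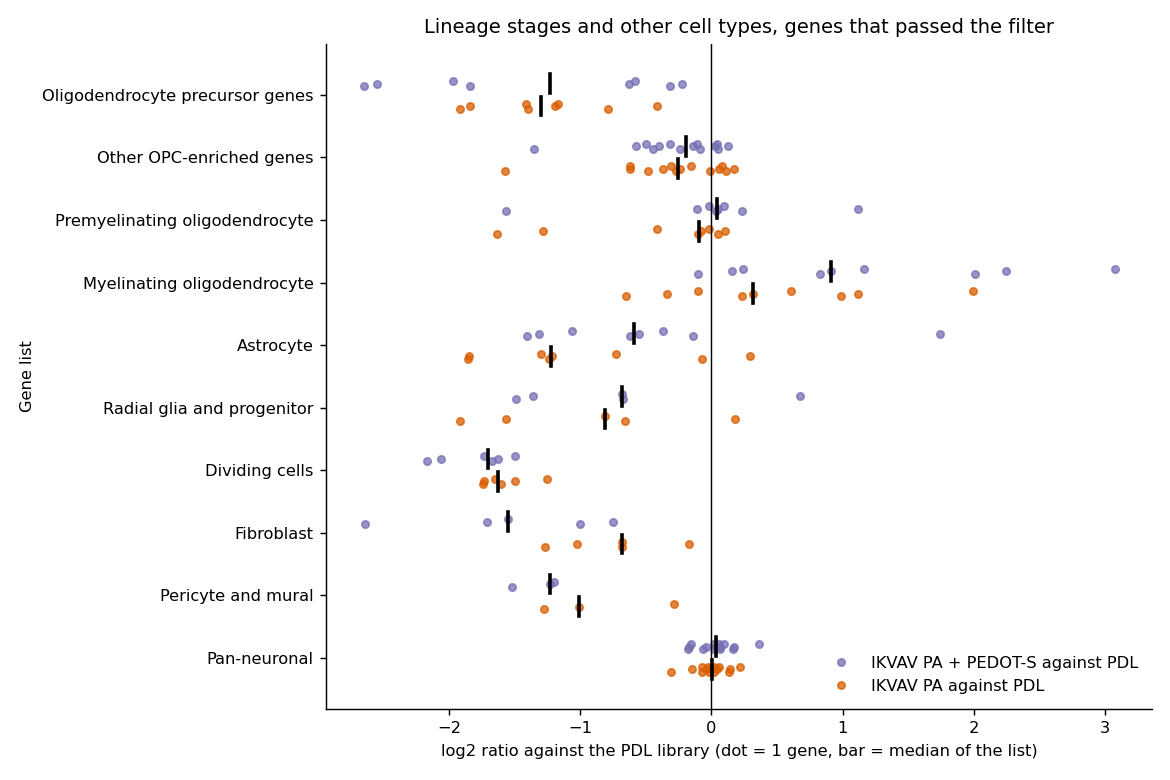
Log2 ratio against the PDL library for genes that passed the filter, by list, with PEDOT-S above IKVAV PA, dots for genes and a black bar for the list median. The precursor genes lie left of 0, the myelinating genes mostly right of it and the pan-neuronal genes at it, while dividing, glial, fibroblast and pericyte markers also lie mostly left.

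Markers of dividing cells were low in the same libraries as the Olig genes, and those of glia in part. The 6 markers of division were all lower on both scaffolds (medians -1.71 and -1.62) and summed to 31.0 CPM with PEDOT-S, 32.6 CPM on IKVAV PA and 102 CPM on PDL. The 9 astrocyte markers summed to 208, 206 and 276 CPM, and of the 8 compared 3 were lower and 1 (Gfap, at 1.39, 0.497 and 0.402 CPM) higher with PEDOT-S, and 6 lower and none higher on IKVAV PA. Gfap passed the filter only with PEDOT-S, and Aqp4, among the 6, only on PDL, in each case the high library. Slc1a2, the largest part of the astrocyte sum, was within the bound on both (-0.14 and -0.07). The 7 markers of radial glia and progenitors summed to 203, 176 and 399 CPM, with 3 of 5 lower on each. The part of these cells in the Olig, Sox8 and Bcan values was not tested. The 8 ventral interneuron progenitor genes, a source of Olig2 in the forebrain, included none past the bound (medians 0.13 and -0.01). Of 6 Schwann cell and neural crest markers, which bear on Sox10, Foxd3 had 0 counts in all libraries and none of the 3 compared passed the bound. Of 5 microglial markers 1 and of 5 endothelial markers 3 were compared, with none past the bound among the microglial, and 2 endothelial genes lower with PEDOT-S and 1 on IKVAV PA. Flt1, called with PEDOT-S, passed the filter only on PDL, its high library. Their sums were 2.16, 2.20 and 1.59 CPM for microglia and 3.30, 3.91 and 6.37 CPM for endothelium with PEDOT-S, on IKVAV PA and on PDL.

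The 6 protein-coding genes whose pair of ratios against PDL lay nearest to the mean of Olig1 and Olig2, among 10270 candidates at 5 CPM or more on PDL, were Rassf4, Knl1, Kcnj10, Pdpn, Ccnb1 and Mki67. Their distances on the log2 scale ran from 0.06 for Rassf4 to 0.22 for Mki67, over 2 ratios from 3 libraries. Kcnj10, a glial potassium channel, stood at 4.32, 4.07 and 15.3 CPM with PEDOT-S, on IKVAV PA and on PDL, and Mki67, the proliferation marker, at 12.6, 12.7 and 42.1 CPM. All of them but Mki67 reached 5 CPM only on PDL, their high library. These likenesses rest on the shared PDL library and are a description only.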

How the data were processed

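The deposited files hold raw counts per gene, whole numbers that the authors did not normalise, for 3 RNA-seq libraries. Per the labels' protocols, total RNA was column-purified and made into TruSeq Total RNA libraries, whereas the molecule field reads polyA RNA. Per the submitters' processing notes, cutadapt 4.2, STAR 2.7.5, HTSeq 2.0.2, DESeq2 1.14.1 and the mm10 build were used. The sources used here give neither the strand setting nor the annotation release.

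Identifiers were named from GENCODE M21 (GRCm38), which matched 54165 of 54232. Genes at 1 CPM or more in any library were kept, and totals were scaled by TMM factors (edgeR 4.0.16, R 4.3.3) of 0.990, 1.00 and 1.01 with PEDOT-S, on IKVAV PA and on PDL. Ratios used a prior count of 2. Their 95% intervals came from the exact binomial (Clopper-Pearson) interval of 1 count given the sum of both, and intervals for gene pairs from the conditional exact odds ratio (SciPy 1.17.1). The procedure was tested on simulated counts that held counting error only, so the test cannot bear on the spread between cultures. Since no molecular identifiers were counted, reads may be copies of 1 molecule, and intervals cover counting error only. Whether the libraries stand for separate cultures is not stated.

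The members and gene lists were chosen with earlier results of these data known. Text names every member, up to 2 genes at each end of a list, any list gene past the bound, and the 6 genes nearest to Olig1 and Olig2. Genes named outside this rule (Ptprz1, Id4, Foxd3, Kcnj8, Vtn, Ptch1) were chosen after their values were seen. So were Id2, Pdgfc, Tnr, Sox6 and Slc1a2, which lie within it in at least 1 comparison. Alternatives tried were scaling by DESeq2 1.42.0 size factors, by totals or to pan-neuronal genes, other filters, a 2-fold bound, thinning to 78993105 counts, leaving out genes with over 10% shared exons, and a prior count of 0.5.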

Additional observations from a re-analysis of the deposited data

How the results depend on the processing

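No paired analysis was possible because each condition has 1 library, all with the same repeat number. The log2 ratios of the 8 compared genes stayed within their counting intervals under all alternatives that kept the gene, and DESeq2 size factors, total counts, pan-neuronal scaling, thinning and the other prior count changed no call among them. With a 2-fold bound, 4 genes were still lower with PEDOT-S than on PDL, 4 on IKVAV PA, and between the scaffolds 1 (Cspg4) was lower and 0 higher, so the calls of Gpr17, of Sox8 on IKVAV PA and of Pdgfra between the scaffolds were lost. With a filter at 5 CPM, which drops Sox10 and Gpr17, 0 were higher between the scaffolds. Leaving out genes with shared exons drops Sox8 and Lhfpl3.

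Counts over all genes depended on the filter and the bound. With PEDOT-S against PDL, 247 were higher and 1082 lower without a filter, 37 and 232 at 5 CPM, and 13 and 258 with a 2-fold bound, and 41 were higher without shared exons. On IKVAV PA against PDL the numbers were 484 and 846, 18 and 227, and 9 and 219. Between the scaffolds they were 230 and 1123, 23 and 96, and 7 and 75. The median ratio of all genes moved by under 0.1 in log2 throughout. Depth limits Nkx2-2, Gpr17 and Sox10 most, and without replicates no spread between cultures is known.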

Other observations

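Some lineage genes lay under the filter and entered no comparison, and they are named here after their values were seen. Enpp6, an enzyme of newly forming oligodendrocytes, had 51 counts with PEDOT-S, 22 on IKVAV PA and 35 on PDL, with IKVAV PA the low library as for Gpr17 and Bcas1. Gli1, a target of Hedgehog signalling, had 5, 5 and 34 counts, with PDL the high library as for Nkx2-2. Ptch1, a Hedgehog gene of the same list that passed the filter, had 3115, 5314 and 3661 counts. It stayed within the bound against PDL (log2 ratios -0.21 with PEDOT-S and -0.11 on IKVAV PA). Matn4, a matrix protein of precursors, was at 0.102, 0.337 and 0.552 CPM, and C1ql1, a secreted protein of precursors, at 0.664, 0.297 and 0.264 CPM. In the myelin list, Opalin had 3 counts with PEDOT-S, 4 on IKVAV PA and 0 on PDL, and Aspa had 1, 0 and 1. Lims2, which shares 3.62% of the exonic bases of Gpr17 from the other strand, had 19, 46 and 30 counts.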
